A study of Sus scrofa with 16 samples.

Results

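The genes examined here encode the core of mTOR signalling and the FOXO factors beside it, and they were followed in the pituitary of pigs that differed in feed conversion. A gene was included when its Ensembl identifier carried 1 of 10 symbols in the deposited annotation, which found 8 genes among the 25880 rows of the count table: MTOR, RPTOR, RICTOR, TSC2, RPS6KB1, EIF4EBP1, FOXO1 and FOXO3. TSC1 and AKT1 were not found under these symbols and are not analysed here. All 8 genes had counts in each pig and passed the expression filter, which tests genes with enough counts in at least as many pigs as a group holds.

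The pituitaries of 16 Złotnicka White gilts, a native Polish breed, were sequenced as whole glands. The 8 LFC pigs had low and the 8 HFC pigs high feed conversion, that is, less or more feed eaten per unit of weight gained. All pigs were female, the labels give day 180 for each, and they were kept at 1 test station on the same feed and housing until slaughter at about 100 kg. The paper reports that the HFC pigs of this breed grew more slowly, spent longer in the test, and had fatter carcasses with less meat. The day in the labels, the same for each pig, therefore does not show that the groups matched in age. Age, growth rate and fatness went with the groups, and their part in the differences was not tested. The study describes the pigs as unrelated animals from different farms. Each pig was therefore 1 replicate, and the p-values measure the spread between these pigs.

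The kinase mTOR joins nutrient and hormone signals to growth. With RPTOR it forms mTORC1, which promotes protein synthesis and restrains autophagy, and with RICTOR it forms mTORC2, which activates AKT. AKT is switched on by insulin and IGF receptors, releases mTORC1 from the brake that TSC2 and its partners hold on it, and keeps the FOXO transcription factors out of the nucleus. In the pituitary, insulin, IGF1 and nutrients act through these proteins on hormone-producing cells. Transcript levels say nothing of phosphorylation, through which most of this signalling runs.

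The libraries held 6010629 to 11794256 reads counted on genes. Expression is given in CPM, the counts scaled to library size by the TMM method, and log2 fold changes above 0 stand for higher levels in HFC. Growth hormone and prolactin transcripts were abundant, with GH1 at 47673 CPM ± 11859 (SD, n = 8) in LFC and 49129 CPM ± 20726 (SD, n = 8) in HFC, as the tissue label states. Libraries LFC 4, LFC 6 and HFC 5 stood apart from the other 13. In these 3, counts fell with the genomic length of genes by between 0.21 and 0.27 log2 units per 10-fold longer span relative to the average pig, against slopes from -0.07 to 0.21 in the others, and transcripts of ribosomal proteins took 10.9%, 8.46% and 10.2% of the counts against 4.29% to 7.23%. This length slope had a median of -0.04 in the LFC and 0.07 in the HFC pigs (n = 8 per group, two-sided exact permutation p = 0.125). The log2 fold changes of the 8 genes are given below with and without these 3 libraries, and correlations over the other 13, a choice made after seeing the data.

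None of the 8 genes differed between the HFC and LFC pigs at the threshold used, an adjusted p up to 0.05 together with a 1.3-fold difference, and neither did any other of the 13621 genes tested, a background of 0% (quasi-likelihood test of edgeR, Benjamini-Hochberg adjusted). DESeq2 called 29 genes at these thresholds, 0 of them among the 8. At an unadjusted p up to 0.05, 0 of the 8 genes passed in edgeR, where 11.4% of all genes did. Expression was on average higher in the HFC pigs for 7 of the 8 genes, while 47.9% of all genes were, and the median log2 fold change was 0.27 over the 8 genes and -0.01 over all genes. EIF4EBP1 was the gene with a lower average. With 1 surrogate variable as a term, 2 of the 8 were higher in HFC, TSC2 at 0.01 and EIF4EBP1 at 0.07, and the log2 fold changes of the other 6 lay between -0.07 and -0.02. The share of all genes higher in HFC in that model is not given here. Without HFC 5 alone 4 of the 8, MTOR, RPTOR, TSC2 and FOXO1, had an unadjusted p up to 0.05, as did 25.7% of all genes, and without LFC 2 they were MTOR and FOXO1, with 16.1% of all genes.

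**Figure D1:**
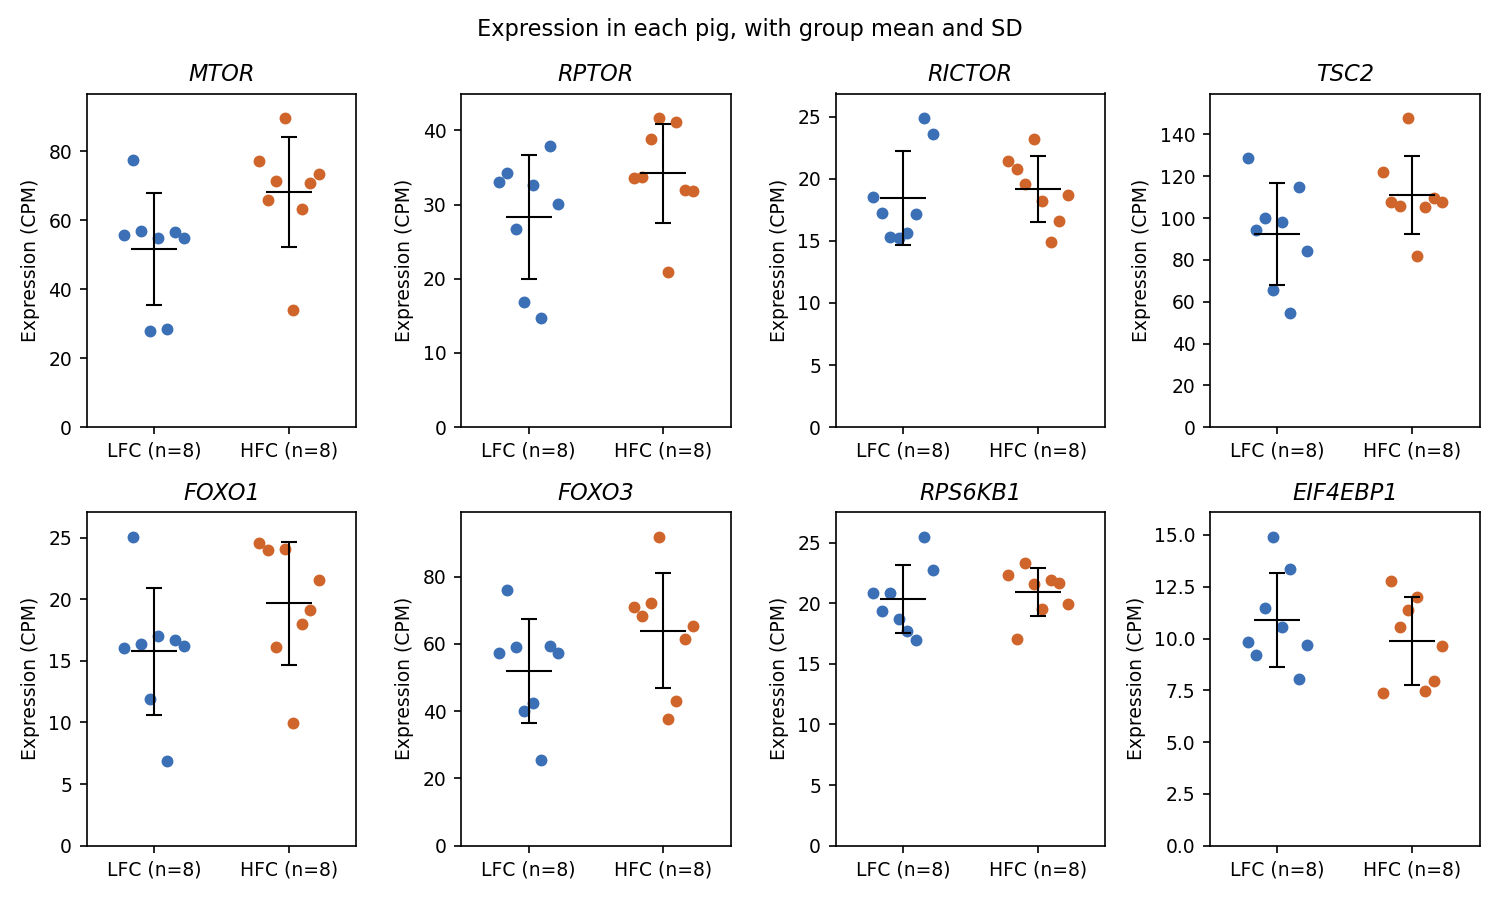
Expression in CPM (vertical axis, from 0) of the 8 genes in each LFC and HFC pig, 1 point per pig, with a line at the mean and bars of 1 SD. The 2 groups overlap for every gene, and MTOR falls to 28.0, 28.6 and 34.0 CPM in 3 pigs while the other 13 lie between 54.8 and 89.6 CPM.

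MTOR (ENSSSCG00000003413, chromosome 6, bases 71285103 to 71448662 of Sscrofa11.1) encodes the kinase itself. Its expression was 28.0 CPM in the lowest, 55.3 at the median and 77.6 in the highest LFC pig, and 34.0, 71.2 and 89.6 CPM in the HFC pigs. The groups overlapped, although 7 of 8 HFC pigs lay above the LFC median, and the low values were those of LFC 4, LFC 6 and HFC 5. Means were 51.6 CPM ± 16.3 (SD, n = 8) in LFC and 68.2 CPM ± 15.9 (SD, n = 8) in HFC, a log2 fold change of 0.40 ± 0.20 (SE) and a 95% interval from -0.01 to 0.82. By edgeR's quasi-likelihood test, the unadjusted p was 0.0576 and the Benjamini-Hochberg adjusted p 0.438, and 13.1% of all genes tested had a smaller p. The exact two-sided permutation test on log2(CPM + 1) gave p = 0.0981. Without the 3 libraries the LFC pigs ran from 54.8 to 77.6 CPM and the HFC pigs from 63.4 to 89.6 CPM. The log2 fold change was then 0.31 ± 0.10 (SE, 6 LFC and 7 HFC pigs), with an unadjusted p of 0.00954 and an adjusted p of 0.251 in edgeR, where 14.4% of the genes had an unadjusted p up to 0.05. MTOR had 167 to 904 counts per pig. Other annotated genes overlap its span, and the libraries were not stranded, so some of these reads may belong to them.

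RPTOR (ENSSSCG00000017139, chromosome 12, bases 1709128 to 1991574) encodes the scaffold that brings substrates to mTORC1. In the LFC pigs it was expressed at 14.7 CPM in the lowest pig, 31.4 at the median and 37.9 in the highest, and in the HFC pigs at 20.9, 33.6 and 41.6 CPM. The same 3 pigs were lowest as for MTOR, 3 HFC pigs exceeded all LFC pigs, and the groups otherwise overlapped. The log2 fold change was 0.27 ± 0.18 (SE), with a 95% interval from -0.10 to 0.65 and an adjusted p of 0.508 in edgeR's quasi-likelihood test. It was 0.16 ± 0.10 (SE) without the 3 libraries.

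RICTOR (ENSSSCG00000016853, chromosome 16, bases 24109947 to 24311162) defines mTORC2. Its levels in the LFC pigs were 15.2 CPM at the lowest, 17.2 at the median and 24.9 at the highest, and those in the HFC pigs were 14.9, 19.1 and 23.2 CPM. The HFC range lay inside the LFC range but for its lowest pig, HFC 6, and LFC 7 and LFC 8 were the highest of all. A log2 fold change of 0.05 ± 0.13 (SE) had a 95% interval from -0.21 to 0.32, and the adjusted p was 0.855 (edgeR). RICTOR did not set the 3 libraries apart, which had 15.2, 17.1 and 18.2 CPM, and without them its log2 fold change was 0.01 ± 0.14 (SE).

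TSC2 (ENSSSCG00000008040, chromosome 3, bases 39896887 to 39979949) encodes the GTPase-activating protein that holds mTORC1 in check. Its expression ran from 54.5 through a median of 96.3 to 129.0 CPM in the LFC pigs and from 81.7 through 107.8 to 147.8 CPM in the HFC pigs. HFC 4 had the highest level, LFC 6 the lowest, and 7 of 8 HFC pigs exceeded the LFC median. Between the groups the log2 fold change was 0.26 ± 0.15 (SE), with a 95% interval from -0.06 to 0.58 and an adjusted p of 0.473 in edgeR, and it was 0.16 ± 0.11 (SE) without the 3 libraries. TSC2 reads may include those of neighbours in the same span, since SLC9A3R2 (5622 counts over all pigs), ZNF598 (2155) and NTHL1 (890) lie within it, and one end of PKD1 (10251) overlaps it by 2569 bases.

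RPS6KB1 and EIF4EBP1 encode substrates of mTORC1. RPS6KB1 (ENSSSCG00000017670, chromosome 12, bases 36111579 to 36160383), the S6 kinase that drives ribosome production and translation, was expressed at 17.0, 20.1 and 25.5 CPM in the lowest, median and highest LFC pig and at 17.1, 21.6 and 23.3 CPM in the HFC pigs. The groups covered nearly the same range, and the coefficient of variation, 13.7% in LFC and 9.45% in HFC, was the lowest of the 8 genes in each group. The log2 fold change was 0.04 ± 0.10 (SE), with a 95% interval from -0.16 to 0.24 and an adjusted p of 0.855 in edgeR, so the interval leaves out a 1.3-fold change in either direction. Without the 3 libraries it was 0.00 ± 0.10 (SE). The outermost 329 bases of its span are shared with TUBD1, which had 397 counts over all pigs.

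EIF4EBP1 (ENSSSCG00000022301, chromosome 15, bases 48421841 to 48443429) encodes the repressor of cap-dependent translation that mTORC1 inactivates. It had the fewest counts of the 8 genes, 64 to 115 per pig. The LFC pigs had 8.04 CPM at the lowest, 10.2 at the median and 14.9 at the highest, and the HFC pigs 7.36, 10.1 and 12.8 CPM. Here LFC 4 and LFC 6 were the highest and HFC 5 the fourth highest of all, the opposite of their place for MTOR. The log2 fold change was -0.14 ± 0.16 (SE), with a 95% interval from -0.47 to 0.19 and an adjusted p of 0.676 in edgeR, and it was -0.03 ± 0.15 (SE) without the 3 libraries.

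FOXO1 (ENSSSCG00000009370, chromosome 11, bases 15320492 to 15410500) and FOXO3 (ENSSSCG00000004387, chromosome 1, bases 74626672 to 74760325) encode transcription factors that are active when insulin signalling is low. FOXO1 was expressed at 6.85, 16.3 and 25.1 CPM in the lowest, median and highest LFC pig and at 9.96, 20.4 and 24.5 CPM in the HFC pigs. FOXO3 was expressed at 25.3, 57.2 and 76.0 CPM in the LFC pigs and at 37.8, 66.8 and 91.9 CPM in the HFC pigs. For both genes 6 of 8 HFC pigs lay above the LFC median, LFC 6 was the lowest pig, and the highest FOXO1 level was that of an LFC pig, LFC 2. The log2 fold change was 0.32 ± 0.21 (SE) for FOXO1, with an adjusted p of 0.505 in edgeR. For FOXO3 it was 0.29 ± 0.20 (SE), with an adjusted p of 0.510 in edgeR. The 95% intervals ran from -0.12 to 0.75 and from -0.12 to 0.71, and without the 3 libraries the log2 fold changes were 0.24 ± 0.14 (SE) and 0.22 ± 0.15 (SE).

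**Figure D2:**
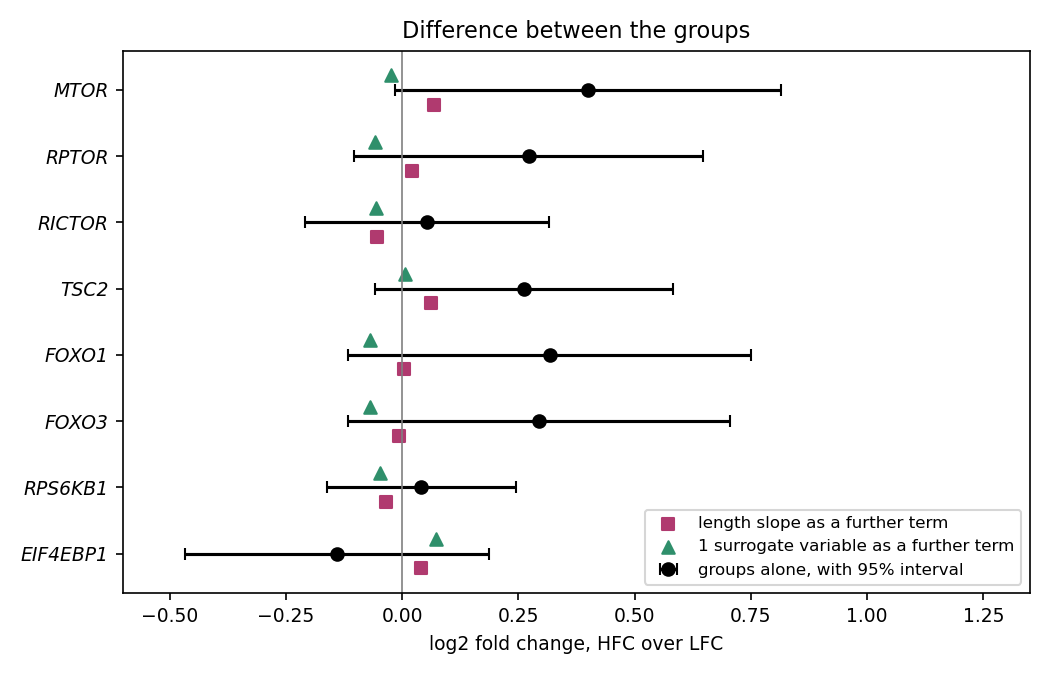
Log2 fold change of each gene, HFC against LFC (horizontal axis), with its 95% interval from edgeR, and the log2 fold change when the length slope of the library was a term of the model. All 8 intervals include 0, and the log2 fold change of MTOR moves from 0.40 to 0.07 with the term.

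The genes with the larger log2 fold changes were long in the genome. MTOR spans more bases than 91.3% of the 10890 tested genes with a known span, RPTOR more than 96.9%, RICTOR more than 93.9%, and FOXO3, FOXO1 and TSC2 more than 88.2%, 80.4% and 78.6%. RPS6KB1 and EIF4EBP1 were nearer the middle, at 64.8% and 40.3%. RICTOR, the second longest, did not share the log2 fold changes of the others. Exonic lengths were not used here, so levels were not compared between genes.

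With the length slope as a term of the model, the log2 fold change was 0.07 for MTOR, 0.02 for RPTOR, 0.06 for TSC2 and 0.00 for FOXO1, and it turned to -0.05 for RICTOR, -0.01 for FOXO3, -0.03 for RPS6KB1 and 0.04 for EIF4EBP1. In that model 5 of 8 genes had a positive log2 fold change, against 50.1% of all genes, and 0 of the 8 had an unadjusted p up to 0.05, against 4.77% of all genes. The slope differed between the groups by less than the spread between pigs, and whether it follows the tissue or the library preparation was not tested.

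Among the 13 remaining pigs, the members were compared with the length slope, the ribosomal and mitochondrial shares and the total counts, 32 relations in all. MTOR followed the slope with r = 0.772 (permutation p = 0.0019, adjusted p = 0.0430) and Spearman's rho = 0.813 (permutation p = 0.00127, adjusted p = 0.0203). Within groups r was 0.659 over 6 LFC pigs and 0.686 over 7 HFC pigs, and it was 0.750 without the 2 pigs farthest from the median slope. FOXO3 followed it likewise, with r = 0.744 (permutation p = 0.00403, adjusted p = 0.0430), rho = 0.874 (permutation p = 2.4e-04, adjusted p = 0.00768), 0.765 and 0.679 within the groups and 0.720 without the 2 farthest pigs. MTOR also fell as the ribosomal share rose (r = -0.749, permutation p = 0.00355, adjusted p = 0.0430; rho = -0.775, permutation p = 0.00287, adjusted p = 0.0306), with r of -0.538 and -0.561 within the groups and -0.657 without the 2 pigs farthest from the median share. The other 29 relations did not pass the adjustment in both measures. How many of all genes followed the slope as closely over the 13 pigs is not given here. Over all pigs, r with the slope was at least 0.8 for 12.2% of the 9943 genes with a mean of at least 10 CPM. It was at most -0.8 for another 12.2% of them. A close relation to the slope was thus common among genes over all pigs, and not particular to MTOR and FOXO3.

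**Figure D3:**
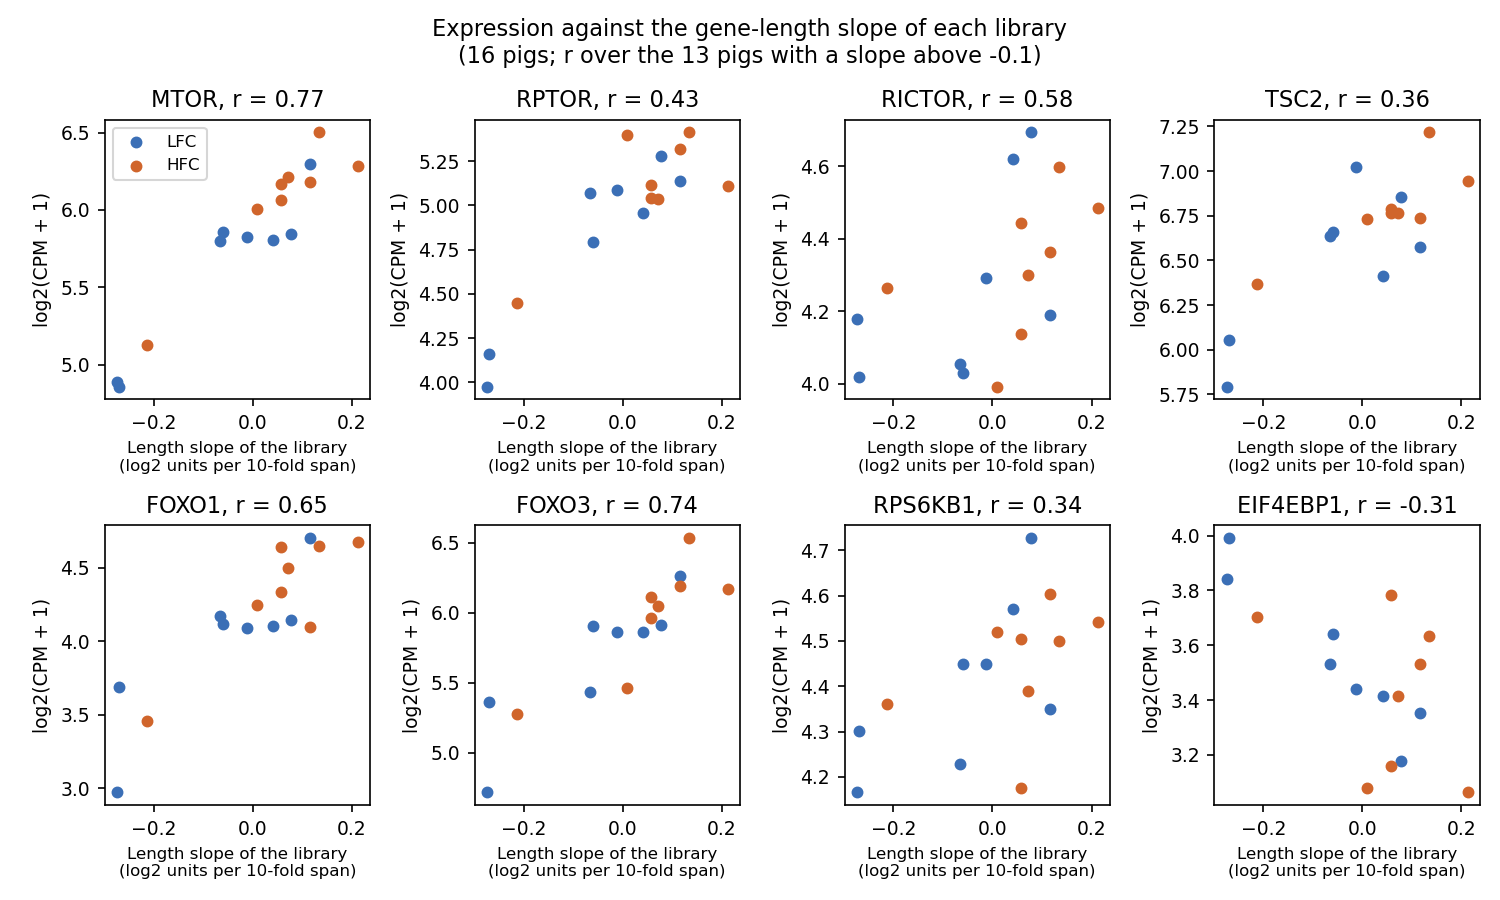
Expression of each gene as log2(CPM + 1) (vertical axis) against the length slope of the library in log2 units per 10-fold span (horizontal axis), 1 point per pig, with r over the 13 pigs to the right. The 3 pigs at the left are the lowest in MTOR and RPTOR and among the highest in EIF4EBP1, and r over the other 13 is 0.77 for MTOR and -0.31 for EIF4EBP1.

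Pairs of members were then compared across pigs, 28 pairs in all. Over 16 pigs 8 pairs had an r of at least 0.8, all among MTOR, RPTOR, TSC2, FOXO1 and FOXO3, but the 3 libraries form a group of their own and 0 pairs reached it among the other 13. As many as 1193 of 9943 genes with a mean of at least 10 CPM, MTOR itself included, had such an r with MTOR over 16 pigs. With the length slope 12.2% of the 9943 had it. Among the 13 pigs the median r of the 28 pairs was 0.228, with 22 pairs above 0 and 6 below. The values of single pairs that follow are also those of the 13 pigs. MTOR and FOXO3 rose and fell together, with r = 0.778 (permutation p = 0.00136, adjusted p = 0.0302) and rho = 0.901 (permutation p = 7e-05, adjusted p = 0.00196). The r was 0.775 in the 6 LFC pigs, 0.832 in the 7 HFC pigs and 0.610 when the 2 pigs farthest from the MTOR median were left out. It was 0.478 after the length slope was taken off. Over all 16 pigs 558 of the 9943 genes, MTOR itself included, were more like MTOR than FOXO3 was. The share of all genes with so high an r over the 13 pigs is not given here. For MTOR and FOXO1 r was 0.792 (permutation p = 0.00216, adjusted p = 0.0302), while rho was 0.731 (permutation p = 0.00585, adjusted p = 0.0819), and r was 0.983 within LFC, 0.470 within HFC and 0.760 without the 2 farthest pigs. The lowest r was that of RPS6KB1 and EIF4EBP1, the kinase and the repressor that mTORC1 acts on, at -0.554 (permutation p = 0.0494, adjusted p = 0.345), with rho = -0.500 (permutation p = 0.0856, adjusted p = 0.511), and it was -0.289 without the 2 farthest pigs. The partners of the complexes gave r = 0.439 for MTOR and RPTOR (adjusted permutation p = 0.405) and r = 0.165 for MTOR and RICTOR (adjusted permutation p = 0.745).

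**Figure D4:**
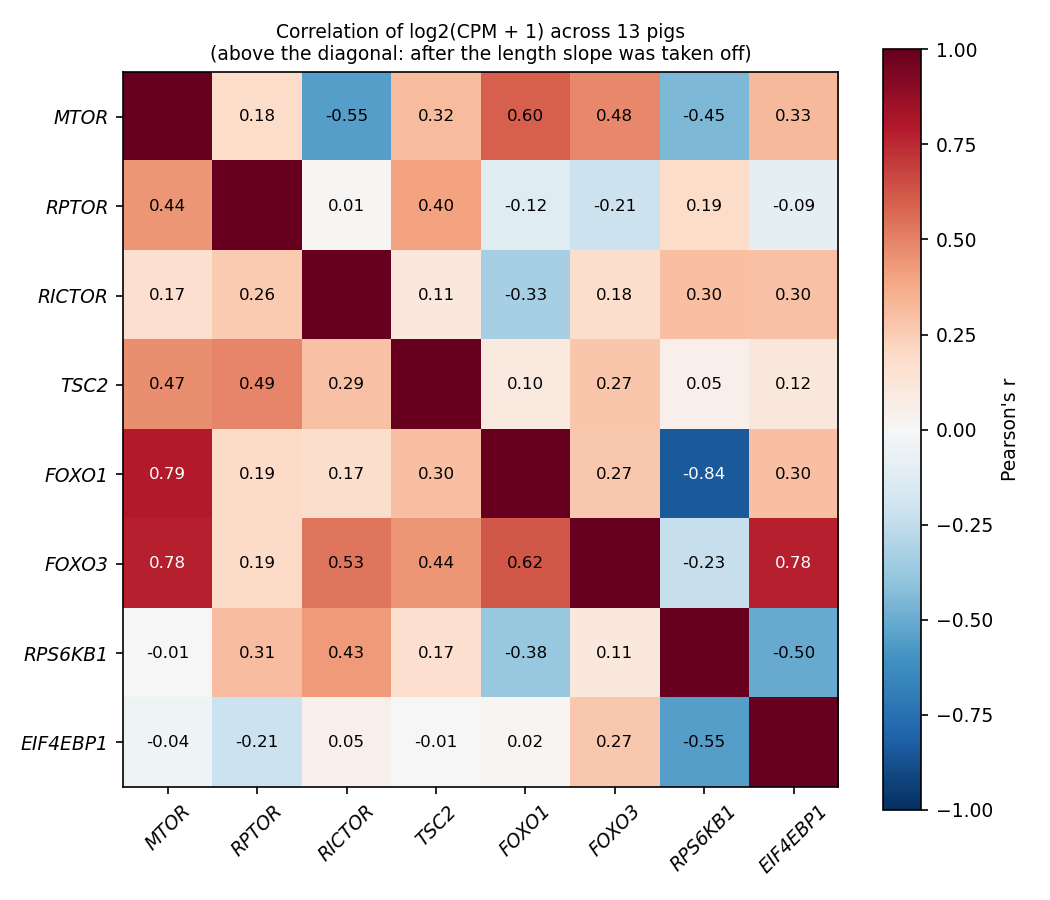
Pearson's r between the genes across the 13 pigs, from log2(CPM + 1) below the diagonal and after the length slope was taken off above it. MTOR with FOXO1 (0.79) and with FOXO3 (0.78) are the highest below the diagonal and are 0.60 and 0.48 above it, where RPS6KB1 with FOXO1 is the lowest at -0.84.

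Ratios within a pig were compared for branches of the pathway, 3 ratios in all. The log2 ratio of RICTOR to RPTOR compares transcripts of a subunit of mTORC2 and one of mTORC1. It ran from -1.06 through a median of -0.70 to 0.22 in the LFC pigs and from -1.46 through -0.80 to -0.19 in the HFC pigs. The 3 libraries that stood apart had its highest values, LFC 6 at 0.22, LFC 4 at -0.15 and HFC 5 at -0.19. The groups overlapped, and the mean difference of -0.25 (95% interval -0.68 to 0.18) gave p = 0.244 and an adjusted p of 0.589 in the exact two-sided permutation test. The ratio of FOXO3 to FOXO1 had means of 1.73 ± 0.19 (SD, n = 8) in LFC and 1.69 ± 0.29 (SD, n = 8) in HFC, and that of EIF4EBP1 to RPS6KB1 -0.91 ± 0.45 (SD, n = 8) and -1.10 ± 0.42 (SD, n = 8). Differences were -0.03 (95% interval -0.29 to 0.23, exact permutation p = 0.790, adjusted p = 0.790) and -0.19 (95% interval -0.65 to 0.28, exact permutation p = 0.393, adjusted p = 0.589). None of the 3 differences exceeded the spread between pigs. LFC 4 and LFC 6 also had the highest ratios of EIF4EBP1 to RPS6KB1, at -0.32 and -0.34. Ratios without the 3 libraries together are not given here.

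Of the 9943 genes with a mean of at least 10 CPM, those with a symbol were compared with MTOR across all 16 pigs. The 5 most like it were DCTN1, OGDH, CLSTN1, SMG6 and INTS3. They encode a dynactin subunit, a citric acid cycle enzyme, a synaptic cadherin, a factor of nonsense-mediated decay and an Integrator subunit. Over the 13 pigs their r with MTOR was 0.876, 0.947, 0.914, 0.866 and 0.869, and their r with the length slope 0.692, 0.782, 0.761, 0.655 and 0.716. OGDH had 104.3 CPM ± 29.6 (SD, n = 8) in LFC and 134.2 CPM ± 27.0 (SD, n = 8) in HFC, a log2 fold change of 0.36. Over the 16 pigs 334 of the 9943 genes were more like MTOR than FOXO1, the closest member, 399 more than RPTOR and 3610 more than RICTOR. These counts take in genes without a symbol and MTOR itself.

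The wider pathway was read from lists of 99 further genes, of which 96 were tested. Of these, 49 were on average higher in HFC, and an unadjusted p up to 0.05 in edgeR was reached by 13 (13.5%, against 11.4% of all genes), 8 higher and 5 lower in HFC. After Benjamini-Hochberg adjustment over all genes 0 passed, and with the length slope as a term 2 of 96 kept an unadjusted p up to 0.05, LARP1 and SOD2, a smaller share than the 4.77% of all genes. Without the 3 libraries 18 had one, as did 14.4% of all genes. The lists were chosen with earlier results of these data known.

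The list of insulin and IGF receptors down to AKT had 16 of 17 genes higher in HFC on average, with a median log2 fold change of 0.12, which was 0.04 with the slope term. INSR, the insulin receptor, had 7.61 CPM in the lowest, 12.9 at the median and 17.1 in the highest LFC pig and 11.8, 18.6 and 23.5 CPM in the HFC pigs. The groups overlapped, with 7 of 8 HFC pigs above the LFC median, and the log2 fold change was 0.49 ± 0.17 (SE), with an unadjusted p of 0.00926 and an adjusted p of 0.413 in edgeR. IGF1R, the IGF1 receptor, had a log2 fold change of 0.54 (unadjusted p = 0.0453 in edgeR), the receptor substrate IRS4 0.50 (0.0396), the kinase PDPK1, which activates AKT, 0.26 (0.0483), and PHLPP2, a phosphatase that removes phosphate from AKT, 0.47 (0.0177). With the slope term their log2 fold changes were 0.29 for INSR, 0.22 for IGF1R, 0.19 for IRS4, 0.07 for PDPK1 and 0.24 for PHLPP2, and none kept an unadjusted p up to 0.05. The kinase AKT2 had a log2 fold change of 0.07 ± 0.08 (SE), and the list's gene with the lower average was SGK1, a kinase downstream of mTORC2, at -0.36 ± 0.22 (SE).

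**Figure D5:**
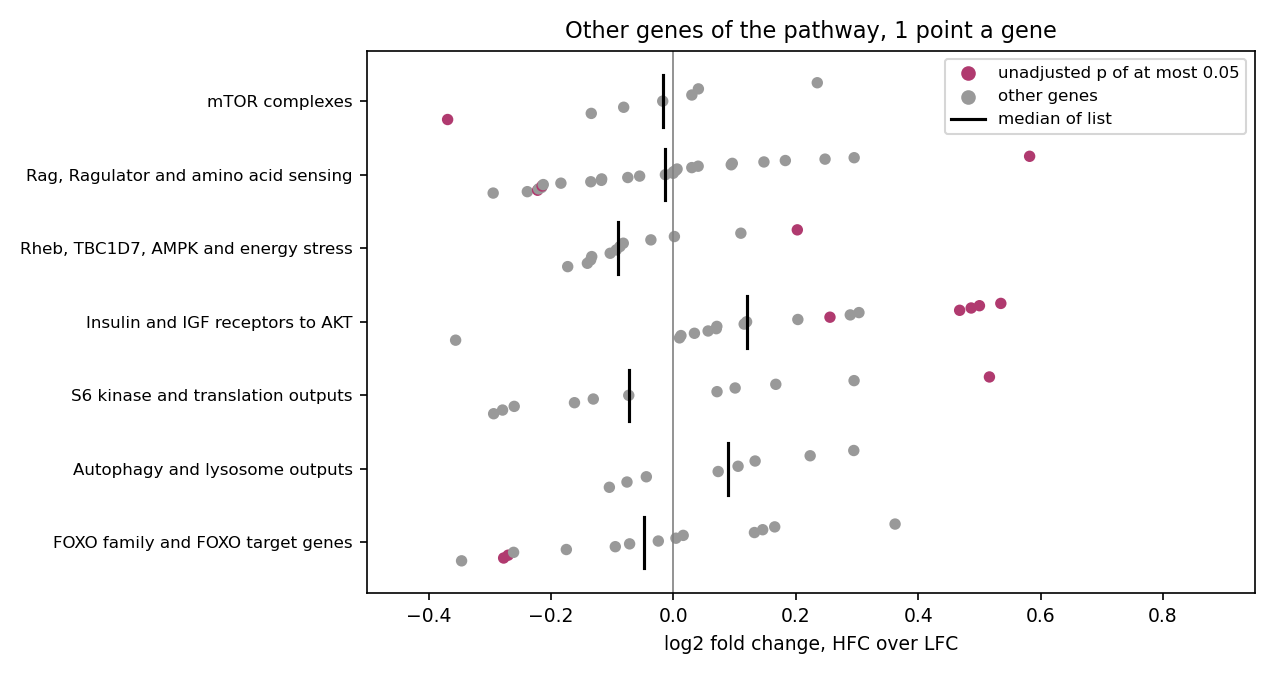
Log2 fold change, HFC against LFC, of the tested genes of each pathway list, 1 point per gene, with the list's median. The list of insulin and IGF receptors to AKT has 16 of 17 points above 0 and a median of 0.12, and the medians of the other lists lie between -0.09 and 0.09.

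Of the 7 other subunits and chaperones of the mTOR complexes, 3 were higher and 4 lower in HFC. PRR5, a subunit of mTORC2, had 7.79 CPM ± 1.17 (SD, n = 8) in LFC and 5.97 CPM ± 1.82 (SD, n = 8) in HFC (log2 fold change -0.37, unadjusted p = 0.0456 in edgeR), and MLST8, found in both complexes, had a log2 fold change of -0.02 ± 0.10 (SE). The 27 genes of amino acid sensing divided into 11 higher and 16 lower. RRAGC and RRAGD, GTPases that bring mTORC1 to the lysosome, had log2 fold changes of -0.22 and -0.21 (unadjusted p = 0.0446 and 0.0391 in edgeR). In the list of Rheb, AMPK and energy stress 3 of 12 were higher, among them STRADA, which activates the kinase STK11 (log2 fold change 0.20, unadjusted p = 0.0452 in edgeR). RHEB, the GTPase that switches mTORC1 on, had a log2 fold change of -0.17 ± 0.14 (SE), which was 0.05 with the slope term.

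Downstream, 5 of 11 genes of the S6 kinase and translation list were higher in HFC. LARP1, which binds the transcripts of ribosomal proteins under mTORC1 control, ran from 22.6 through 42.4 to 59.4 CPM in LFC and from 33.4 through 58.3 to 70.2 CPM in HFC, overlapping ranges with 7 of 8 HFC pigs above the LFC median. Its log2 fold change was 0.52 ± 0.18 (SE), with an unadjusted p of 0.00924 and an adjusted p of 0.413 in edgeR, and 0.23 with the slope term (unadjusted p = 0.0116). The autophagy and lysosome list had 5 of 8 genes higher and 0 at an unadjusted p up to 0.05.

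Of the FOXO family and FOXO target genes, 6 of 14 were higher and 8 lower in HFC. SOD2, the mitochondrial superoxide dismutase, ran from 63.1 through 70.4 to 79.5 CPM in LFC and from 50.6 through 57.1 to 72.2 CPM in HFC, and 7 of 8 HFC pigs lay below the LFC median. Its log2 fold change was -0.28 ± 0.09 (SE), with an unadjusted p of 0.00664 and an adjusted p of 0.413 in edgeR, and -0.17 with the slope term (unadjusted p = 0.0204). CCNG2, a cyclin that restrains the cell cycle, had a log2 fold change of -0.27 (unadjusted p = 0.0257 in edgeR). Neither FOXO4 (-0.07 ± 0.09, SE) nor FOXO6 (0.17 ± 0.27, SE) differed by more than the spread between pigs.

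Markers of pituitary and other cell types varied between the pigs. Of 34 tested, 8 had an unadjusted p up to 0.05 between the groups in edgeR, where 11.4% of all genes did, and 0 passed the adjusted threshold. DESeq2 called 3 of them, PRL, POMC and the collagen gene COL1A2, among the 29 genes it called in the whole table. In whole tissue fewer cells of a type and less RNA per cell cannot be told apart. The summed level of 2 blood markers found of 3 listed, HBB and ALAS2, was 276.8 to 1425 CPM in LFC and 63.0 to 1044 CPM in HFC (exact two-sided permutation test, n = 8 per group, p = 0.0228). Over the 13 pigs its r with MTOR was -0.643 (permutation p = 0.0181, adjusted over 10 marker lists p = 0.115), rho was -0.648 (adjusted permutation p = 0.0666), r was -0.399 within LFC and -0.279 within HFC, and r without the 2 pigs farthest from the median sum was -0.674. Fibroblast markers, 5 of 5 found, had sums of 241.9 to 480.0 CPM in LFC and 295.6 to 859.2 CPM in HFC (exact two-sided permutation test, n = 8 per group, p = 0.0817). Of these, 3 collagen genes had positive log2 fold changes, while DCN and LUM each had -0.11. Over the 13 pigs the sum had r = 0.568 with MTOR (adjusted permutation p = 0.115) and rho = 0.665 (adjusted permutation p = 0.0666). That r was 0.585 and 0.454 within the groups and 0.464 without the 2 farthest pigs. POMC, the hormone precursor of corticotrophs, averaged 36014 CPM ± 22458 (SD, n = 8) in LFC and 15365 CPM ± 5006 (SD, n = 8) in HFC, and CGA, the shared subunit of the glycoprotein hormones, 28002 CPM ± 12684 (SD, n = 8) and 18949 CPM ± 8034 (SD, n = 8). The summed gonadotroph and thyrotroph markers did not differ beyond the spread between pigs (exact two-sided permutation p = 0.107), and 2 of the 4 tested, FSHB and TRHR, had positive log2 fold changes of 0.13 and 0.38. Endothelial markers, 4 of 4 found, had sums of 94.7 to 143.4 CPM in LFC and 79.5 to 225.0 CPM in HFC (exact two-sided permutation test, n = 8 per group, p = 0.199). All 4 had positive log2 fold changes, among them VWF at 0.78 and CDH5 at 0.43 (unadjusted p = 0.0126 and 0.0436 in edgeR). Their sum had r = 0.564 with MTOR over the 13 pigs (adjusted permutation p = 0.115), rho = 0.538 (adjusted permutation p = 0.153), 0.511 and 0.531 within the groups and 0.726 without the 2 farthest pigs. The prolactin transcript PRL, the 1 lactotroph marker, summed to 15469 to 56602 CPM in LFC and 39837 to 112377 CPM in HFC (exact two-sided permutation test, n = 8 per group, p = 0.00109). Marker sums are on a slightly different CPM scale, as PRL taken as a single gene had 15501 to 56707 CPM in LFC and 39895 to 112503 CPM in HFC. Over the 13 pigs the PRL sum had r = 0.418 with MTOR (adjusted permutation p = 0.259) but -0.123 within LFC and -0.261 within HFC. The 7 genes of posterior lobe glia and myelin summed to 201.1 to 6206 CPM in LFC and 195.7 to 3470 CPM in HFC, with r = -0.591 with MTOR (adjusted permutation p = 0.115), rho = -0.769 (adjusted permutation p = 0.0300), -0.496 and -0.508 within the groups and -0.600 without the 2 farthest pigs. The part of cell composition in the levels of the 8 genes was not tested.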

How the data were processed

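Whole pituitary RNA of 16 gilts was sequenced from unstranded libraries. The authors trimmed the reads with Flexbar, mapped them to Sscrofa11.1 (Ensembl annotation; RSEM and STAR are named) and deposited raw counts per gene and pig. Of their deposited comparison, only identifiers, symbols and positions were used, and its means, fold changes and p-values were not. Groups came from the labels, where a tag named shear force holds the feed conversion group. The 8 genes and all lists were chosen with earlier results of these data known. Genes without a deposited symbol were named by an identifier table, or by position where 1 RefSeq gene covered at least 50% of both spans.

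In R 4.3.3, edgeR 4.0.16 tested the 13621 genes that passed its expression filter, by quasi-likelihood F tests after TMM scaling, with p-values adjusted by Benjamini-Hochberg. A call needed an adjusted p up to 0.05 together with a 1.3-fold difference. Single genes and ratios had exact permutation tests over the 12870 divisions of 16 pigs into 8 and 8. Single genes were taken as log2(CPM + 1), and ratios as log2((count + 1)/(count + 1)) of the raw counts within a pig. Correlations had 100000 resamples. The length slope was fitted per pig to the log2 deviations from the mean over pigs against log10 of the span. As 3 libraries formed a group of their own, correlations planned over 16 pigs are given over the other 13. The rule for naming genes was the 8 genes, the 12 genes of the lists with the smallest unadjusted p up to 0.05 and any counted among 5 or fewer, the 5 genes with a symbol most like MTOR over 16 pigs, and PRL, GH1, POMC and CGA. AKT2, SGK1, MLST8, RHEB, FOXO4, FOXO6, HBB, ALAS2, FSHB, TRHR, VWF, CDH5, COL1A2, DCN and LUM were named after their values were seen. The planned ratio of TSC1 to TSC2 was not computed, as TSC1 was not found. A few other genes that the rule or the overlaps would name are not reported here.

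Alternatives were DESeq2 1.42.0, limma voom (3.58.1) with sample weights, other scalings and filters, a pseudocount of 0.1, 1 surrogate variable (sva 3.50.0), the length slope, a replicate block and each pig left out. Leaving out 3 pigs together and taking the slope off the members were added after seeing the data. The tests were tested on simulated data. No 2 libraries were copies of each other, and replicate numbers did not pair the pigs. Python 3.11.15, numpy 2.4.6, scipy 1.17.1, pandas 2.3.3 and matplotlib 3.10.9 were used for the rest.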

Additional observations from a re-analysis of the deposited data

Results flagged for a closer look

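Of 22 sets of values examined for a pig far from the rest of its group, 1 stood out, and chance alone singles out about 1 group in 20. MTOR in HFC 5 was 34.0 CPM, below the other 7 HFC pigs at 63.4 to 89.6 CPM. Its gap to the next pig was 0.528 of the range of the group, just over the critical value for 8 pigs. The same library had a length slope of -0.21 and a ribosomal protein share of 10.2%, and was among the 3 lowest pigs for 5 of the 8 genes. Without it the log2 fold change of MTOR was 0.52, its unadjusted p 0.00992 and its adjusted p 0.107 in edgeR.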

How the results depend on the processing

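No setting called any of the 8 genes at the adjusted threshold, and 0 genes of the table were called except by DESeq2, which called 29. Genes of the 8 with an unadjusted p up to 0.05 numbered 0 in edgeR, 1 with DESeq2, 2 with voom and sample weights, 1 without the 3 libraries of low length slope, and 0 to 4 when single pigs were left out. The 4 appeared without HFC 5 (MTOR, RPTOR, TSC2 and FOXO1), 2 without LFC 2 and 1 without LFC 1. Pathway genes at that level numbered 13, against 2 with the slope term, 2 with a surrogate variable, 23 with voom and 6 to 24 with single pigs left out. The share of all genes at that level was 11.4% in edgeR, 4.77% with the slope term and 14.4% without the 3 libraries. With single pigs left out it ran from 7.23% to 25.7%. It is not given here for DESeq2, voom, the surrogate variable or the replicate block.

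Directions turned with the slope term for RICTOR (-0.0531), FOXO3 (-0.00737), RPS6KB1 (-0.0347) and EIF4EBP1 (0.0411), on the log2 scale. With 1 surrogate variable they turned for MTOR (-0.0229), RPTOR (-0.0573), RICTOR (-0.0561), FOXO1 (-0.0689), FOXO3 (-0.0695), RPS6KB1 (-0.0468) and EIF4EBP1 (0.0727), leaving 2 of 8 genes higher in HFC. The share of all genes higher in HFC with the surrogate variable is not given here, and the cause was not tested. The log2 ratio of FOXO3 to FOXO1 lay between -0.10 and 0.0296 with single pigs left out and turned at the latter, without HFC 6. Pairs with an r of at least 0.8 numbered 8, 0 after the slope was taken off, 0 without the 3 libraries and 4 to 9 with single pigs left out. With single pigs left out all 8 genes kept their sign, with log2 fold changes of 0.32 to 0.52 for MTOR, 0.20 to 0.37 for RPTOR, 0.01 to 0.13 for RICTOR, 0.19 to 0.35 for TSC2, 0.23 to 0.44 for FOXO1, 0.20 to 0.39 for FOXO3, 0.01 to 0.10 for RPS6KB1 and -0.19 to -0.05 for EIF4EBP1. The difference in the ratio of RICTOR to RPTOR ran from -0.34 to -0.13, and that of EIF4EBP1 to RPS6KB1 from -0.29 to -0.10.

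Same-numbered pigs did not vary together (r from -0.44 to 0.39, and 0 of 8 LFC pigs correlated best with the HFC pig of their own number), so the numbers do not pair them. With the replicate block the log2 fold change of MTOR was 0.42 (unadjusted p = 0.0728 in edgeR), 0 of the 8 genes and 14 pathway genes had an unadjusted p up to 0.05, and the 3 ratios differed by -0.25, -0.03 and -0.19 (exact sign-flip permutation p = 0.414, 0.805 and 0.406), which changed no call. EIF4EBP1, with 64 to 115 counts per pig, and FOXO1, with 40 to 243, rest on the fewest reads.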
